A study of Mus musculus with 10 samples.

Results

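A set of 9 genes that make, recruit, restrain or reverse phosphoinositide 3-kinase (PI3K) signalling was followed in splenic B cells of mice with and without liver fibrosis. They were taken from the deposited gene table by symbol. They are the catalytic subunit genes Pik3ca, Pik3cb, Pik3cd and Pik3cg, the regulatory subunit genes Pik3r1 and Pik3r5, the adaptor gene Pik3ap1, the inhibitor gene Pik3ip1 and the lipid phosphatase gene Inpp5d. All 9 were found among 54532 genes, each once, and all 9 passed the filter on low counts. RNA was sequenced from splenic B cells of mice that had liver fibrosis after intraperitoneal CCl4 for 4 weeks (fibrosis, 5 libraries) and from wildtype mice (control, 5 libraries). CCl4 is carbon tetrachloride, a solvent toxic to hepatocytes. The strain, age, sex and any vehicle treatment of the control mice, and the way in which B cells were isolated, are not stated. No source states that each library came from a different animal, so the p-values reflect the spread between these libraries, which may in part be technical.

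PI3K phosphorylates the membrane lipid PIP2 to PIP3, which draws kinases and adaptors with PIP3-binding domains, such as AKT and BTK, to the membrane. In B cells the antigen receptor activates mainly the delta form of the enzyme, and the signal supports survival, growth and the balance between B cell fates. SHIP-1 turns PIP3 into another lipid, and AKT keeps the transcription factor FOXO1 out of the nucleus.

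Of the 9 genes, 1 was higher in fibrosis and none (0) was lower once p-values from edgeR's quasi-likelihood test were adjusted over all genes tested (threshold 0.05). Pik3ip1, whose product binds the catalytic subunit and restrains it, was the gene that rose, by 2.10-fold. Over all 14283 genes tested, 35.7% were called, with 18.6% higher and 17.2% lower, so the 11.1% of called members lay below the share of the whole table. At an unadjusted p under 0.05, 3 members were higher and none (0) lower. DESeq2 called 1 higher and 0 lower. Limma voom, run with quality weights that count deviant libraries less, called 3 higher and 0 lower. The median change of the 9 members was 0.15 on the log2 scale, against 0.05 over all genes tested.

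The promoter window of Pik3ip1 is shown because it belongs to the member that changed. Those of Inpp5d and Pik3cg are shown beside it because both held a PU.1 motif; their genes were not called. Each window runs from 250 bases before to 50 bases after a RefSeq start site (build GRCm38.p6) and is written 5′ to 3′ on the strand of the gene. Capitals mark matches to a searched motif: the E-box CAGCTG in Pik3ip1, and the PU.1 motif GAGGAAGT in the others, read on the opposite strand in Pik3cg.
Pik3ip1, chr11:3330481-3330780, plus strand: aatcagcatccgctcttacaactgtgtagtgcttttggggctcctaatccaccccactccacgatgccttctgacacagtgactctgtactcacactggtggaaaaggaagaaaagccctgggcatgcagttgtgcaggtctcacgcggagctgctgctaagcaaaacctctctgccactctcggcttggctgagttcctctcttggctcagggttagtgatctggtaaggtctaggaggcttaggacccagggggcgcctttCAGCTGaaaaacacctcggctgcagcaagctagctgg
Inpp5d, chr1:87620062-87620361, plus strand: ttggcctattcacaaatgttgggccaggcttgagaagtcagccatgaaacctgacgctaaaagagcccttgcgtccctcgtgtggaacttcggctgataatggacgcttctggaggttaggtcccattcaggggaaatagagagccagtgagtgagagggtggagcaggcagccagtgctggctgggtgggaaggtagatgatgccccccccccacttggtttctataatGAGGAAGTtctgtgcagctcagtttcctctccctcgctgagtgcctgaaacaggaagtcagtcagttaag
Pik3cg, chr12:32208610-32208909, minus strand: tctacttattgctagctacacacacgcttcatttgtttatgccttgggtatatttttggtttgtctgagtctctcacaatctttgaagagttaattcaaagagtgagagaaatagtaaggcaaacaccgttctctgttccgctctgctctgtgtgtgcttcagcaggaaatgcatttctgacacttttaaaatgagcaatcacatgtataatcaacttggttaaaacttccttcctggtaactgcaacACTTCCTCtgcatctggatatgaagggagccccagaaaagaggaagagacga

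A set of 5 motifs was searched on both strands in the 13 windows of the 9 genes: GTAAACA for FOXO, GAGGAAGT for PU.1, CAGCTG for E2A, CACACCC for KLF, and an NF-kB motif. The E-box of Pik3ip1 began 13 bases after the start site. CAGCTG was also found in the window of Pik3ap1, and in 16.3% of all 32851 windows. The PU.1 motif began 20 bases before the Inpp5d start and 2 bases before the Pik3cg start, and 3.2% of all windows held it. The other Pik3cg window overlaps the one shown, holds the same PU.1 motif and also a FOXO motif, which 3.65% of all windows held. No FOXO, KLF or NF-kB motif lay in the Pik3ip1 window, which says only that these letters are not in it. The RefSeq start used for Pik3ip1, 3330731, lies inside the gene model, which starts at 3330401. The window therefore holds no sequence upstream of that gene model. The ratio of observed to expected CG dinucleotides was 0.312 in Pik3ip1, 0.284 in Inpp5d and 0.323 in the Pik3cg window shown. It was 0.986 in Pik3cb and 0.867 at the upstream start of Pik3r1, where the median of all windows was 0.384.

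Total counts ranged from 13439100 to 17069393 in fibrosis and from 15912080 to 17954551 in control. The summed level of 12 B cell markers was 17374 to 25858 CPM (counts scaled by TMM to a common library size) in fibrosis and 14593 to 16556 CPM in control. Most of this sum was 1 gene, Cd74, with 12254 of 21330 CPM on average in fibrosis and 8299 of 15616 CPM in control. By edgeR 5 of the 12 markers were higher and 0 lower. Cd79a, a chain of the B cell receptor, was at 1995 and 1623 CPM on average and was not called (adjusted p = 0.0886). No marker in the table from the lists for B cells and other cells was at 0 in all libraries. Fibrosis libraries 4 and 5 stood apart: they held 1018 and 1080 CPM of platelet markers, against 239 to 603 CPM in the other fibrosis libraries and 134 to 168 CPM in control. They also held 3703 and 4607 CPM of neutrophil markers, against 391 to 1538 CPM in the other fibrosis libraries and 676 to 1833 CPM in control. Their macrophage and monocyte markers were at 5344 and 6067 CPM, against 1793 to 3201 CPM in the other fibrosis libraries and 3288 to 5351 CPM in control. Relative to control, the mean log2 level of the B cell markers was 0.46, 0.60 and 0.51 in fibrosis 1 to 3, and 0.01 and 0.12 in fibrosis 4 and 5. Cycling genes were lower in 16 of 16, with 1230 to 1880 CPM in fibrosis and 3306 to 4282 CPM in control. As these are bulk samples, a change in the number of cells of a type and a change in RNA per cell cannot be told apart.

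Pik3ip1 lies on chromosome 11 (3330401 to 3342971, plus strand, GRCm38) and encodes a membrane protein with an extracellular kringle domain. It stood at 64.3, 95.2, 48.3, 81.4 and 79.9 CPM in fibrosis 1 to 5, and at 47.8, 29.6, 34.1, 33.9 and 30.3 CPM in control 1 to 5. All fibrosis libraries lay above all control libraries, but only narrowly, since fibrosis 3 was close to control 1. Groups separated in this direction in 11.4% of all genes tested. Means and SDs of the 5 libraries were 73.8 ± 17.99 CPM for fibrosis and 35.2 ± 7.38 CPM for control. The log2 change was 1.07 ± 0.18 (SE), with a 95% interval of 0.68 to 1.46 and an adjusted p of 0.000642. It was higher in fibrosis under all 23 alternatives run, between 0.75 and 1.20 with adjusted p from 3.77e-15 to 0.0211. A processed transcript on the opposite strand, Gm12592, shares 91 exonic bases with Pik3ip1, and it held 107 counts over all libraries against 8814 for Pik3ip1.

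T cells also express Pik3ip1, and their markers were higher in 3 of 13 tested genes by edgeR, 7 by DESeq2 and 2 by limma voom. The median log2 change of these markers was 0.88, with a summed level of 94.2 to 182 CPM in fibrosis and 80.6 to 114 CPM in control. In fibrosis 1 to 5 the T cell markers stood at 131, 120, 94.2, 182 and 154 CPM. Fibrosis 3 was the lowest fibrosis library for these markers and for Pik3ip1, and the highest was fibrosis 4 for the markers and fibrosis 2 for Pik3ip1. Among the controls, control 1 was the highest for Pik3ip1 (47.8 CPM) and the lowest for the markers (80.6 CPM). Much of the sum came from Lck (47.0 CPM on average in fibrosis, 41.5 CPM in control) and Cd8a (38.3 and 21.2 CPM). The T cell receptor chain gene Cd3e was at 2.25 CPM in fibrosis and 0.840 CPM in control. Dendritic cell markers were higher in 5 of 10 genes, at 332 to 455 CPM against 240 to 274 CPM in control. NK cell markers were higher in 5 of 10, at 87.1 to 184 CPM against 76.5 to 129 CPM in control. Of all genes tested, 18.6% were higher. The part of T cell, dendritic cell and NK cell markers in the rise of Pik3ip1 was not tested. Without fibrosis 4 and 5, the change of Pik3ip1 was 0.98 (adjusted p = 0.00415), and 1 of 13 T cell markers was higher.

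**Figure D1:**
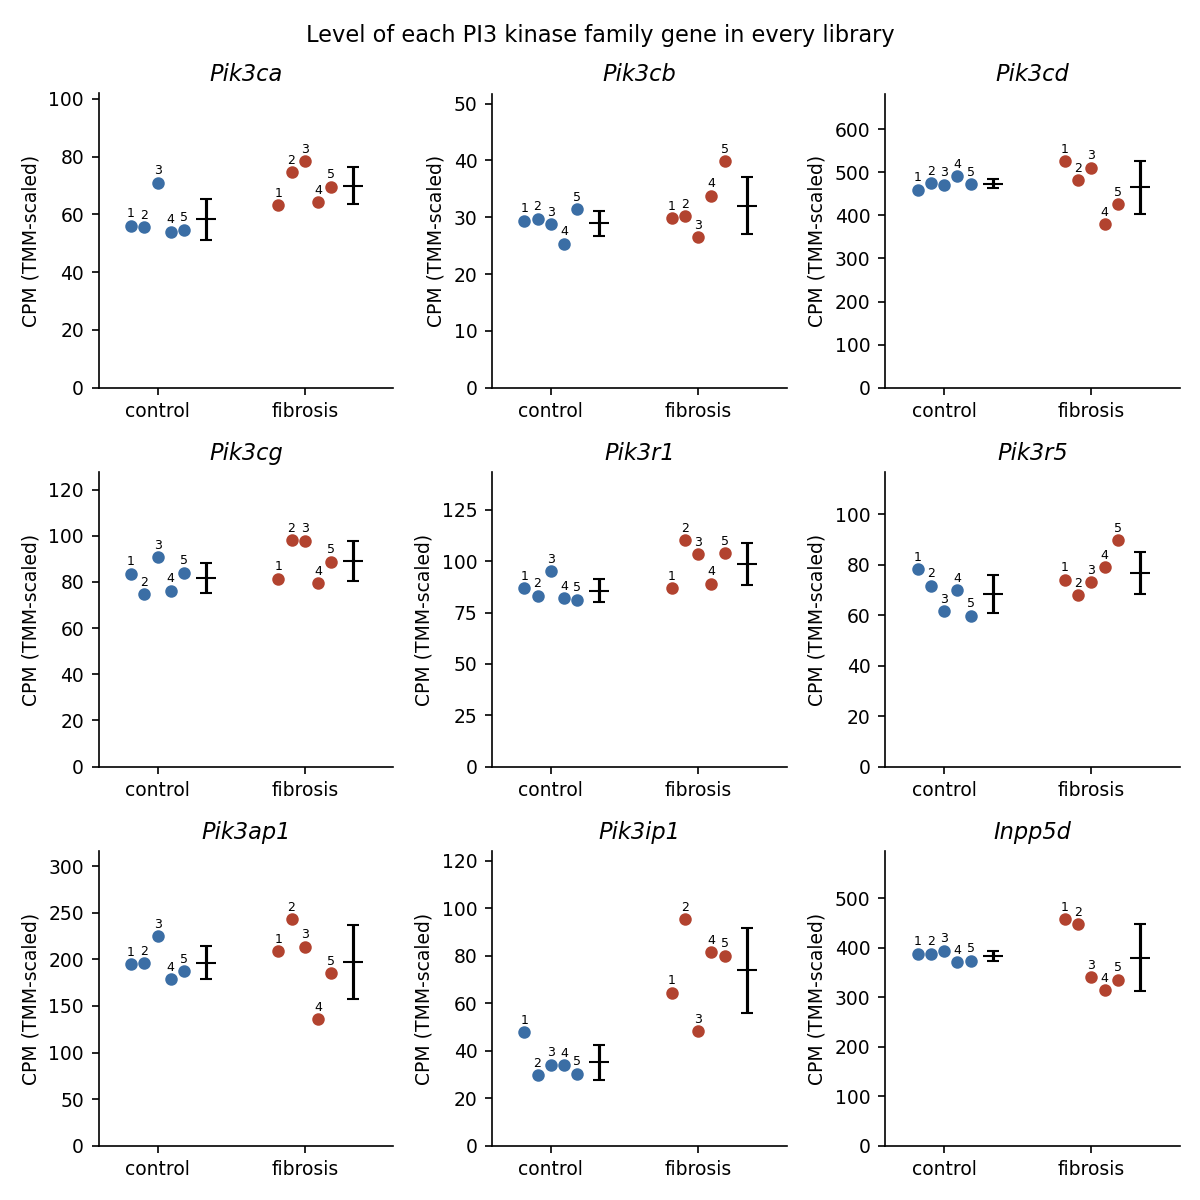
Level of each of the 9 genes in every library, in CPM scaled by TMM (vertical axes, starting at 0). Points are libraries with their replicate number, control in blue and fibrosis in red, and black bars are the mean ± SD (n = 5). Pik3ip1 separates the groups, with fibrosis 3 at 48.3 CPM beside control 1 at 47.8 CPM, and Pik3cd, Pik3ap1 and Inpp5d are lowest in fibrosis 4.

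The genes whose log2 CPM followed Pik3ip1 most closely over the 10 libraries were Ptpn22, B2m and Ly86 (Pearson's r of 0.989, 0.963 and 0.961, among 8765 protein-coding genes compared). These values describe 10 libraries that share a group difference and a scaling. With the group means removed, r was 0.958 for Ptpn22, 0.864 for B2m and 0.841 for Ly86. Ptpn22, a tyrosine phosphatase gene of lymphocyte receptor signalling, stood at 79.5, 110.9, 67.0, 96.1 and 99.5 CPM in fibrosis 1 to 5 and at 69.1, 40.5, 45.4, 43.3 and 37.3 CPM in control 1 to 5. Like Pik3ip1, it was highest in fibrosis 2, lowest among the fibrosis libraries in fibrosis 3, and highest among the controls in control 1. For Ptpn22, control 1 lay just above fibrosis 3, so the groups overlapped. Its log2 change was 0.94 ± 0.17 (adjusted p = 0.00123). B2m, the light chain of MHC class I, rose by 0.52 ± 0.12, and Ly86, the partner of the receptor RP105, rose by 0.56 ± 0.09. When libraries were scaled to equal B cell marker levels, B2m (0.20, adjusted p = 0.408) and Ly86 (0.24, adjusted p = 0.231) were not called, and Ptpn22 was (0.62, adjusted p = 0.0446). That scaling was chosen after the data were seen and moved the median of all genes by -0.33.

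**Figure D2:**
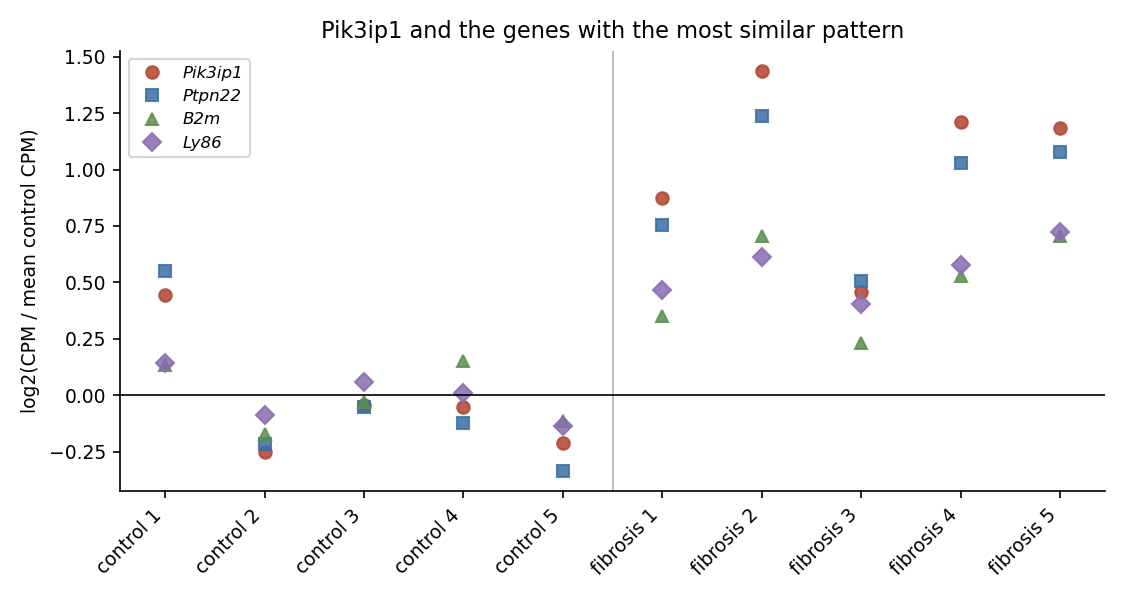
Log2 of CPM over the mean control CPM (vertical axis) for Pik3ip1 and the 3 genes with the highest Pearson's r to it, in each of the 10 libraries (horizontal axis). Fibrosis 2 is the highest library for Pik3ip1 and Ptpn22 and fibrosis 3 the lowest fibrosis library for all 4, and control 1 is the highest control for Pik3ip1, Ptpn22 and Ly86.

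The catalytic subunits of class I phosphorylate PIP2; the delta and gamma forms are enriched in leukocytes and the alpha and beta forms are widespread. Pik3cd (chromosome 4, 149649168 to 149702571, minus strand) encodes the delta form. It stood at 525, 482, 511, 379 and 426 CPM in fibrosis 1 to 5 and at 460, 474, 472, 491 and 472 CPM in control 1 to 5. The fibrosis libraries lay on both sides of the controls, with fibrosis 1 and 3 above and fibrosis 4 and 5 below all of them. Its log2 change was -0.03 ± 0.10, with a 95% interval of -0.24 to 0.18 (adjusted p = 0.853). A change as large as that of Pik3ip1 lay outside this interval.

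Pik3ca (chromosome 3, 32397671 to 32468486, plus strand), the alpha form, missed the threshold narrowly. It was at 63.2, 74.6, 78.4, 64.2 and 69.6 CPM in fibrosis 1 to 5 and at 56.1, 55.6, 71.1, 54.0 and 54.7 CPM in control 1 to 5. Control 3 lay among the fibrosis libraries, and the other controls lay below all of them. The log2 change was 0.26 ± 0.10 (95% interval 0.05 to 0.48, adjusted p = 0.0520). Leaving out fibrosis 1, fibrosis 4 or control 3 brought it past the threshold (0.29 to 0.34, adjusted p from 0.0108 to 0.0402), as did leaving out fibrosis 4 and 5 together (0.31, adjusted p = 0.0370). Over all alternatives its adjusted p ranged from 0.00871 to 0.696.

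Pik3cb (chromosome 9, 99036654 to 99140621, minus strand), the beta form, ranged from 26.5 to 39.8 CPM in fibrosis and from 25.3 to 31.4 CPM in control, and its log2 change was 0.15 ± 0.11 (adjusted p = 0.333). Pik3cg (chromosome 12, 32173473 to 32208659, minus strand), the gamma form that G protein-coupled receptors activate, ranged from 79.4 to 98.0 CPM and from 74.8 to 90.7 CPM, with a change of 0.12 ± 0.09 (adjusted p = 0.308). In both genes the groups overlapped.

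Pik3r1 (chromosome 13, 101680563 to 101768217, minus strand) encodes p85 alpha and its shorter forms, which stabilise the class IA catalytic subunits and dock them on phosphorylated receptors. It stood at 86.8, 110.1, 103, 89.1 and 104 CPM in fibrosis 1 to 5 and at 87.0, 83.2, 95.3, 81.9 and 81.2 CPM in control 1 to 5. Fibrosis 2, 3 and 5 lay above all controls, and fibrosis 1 and 4 lay among them. Its log2 change of 0.20 ± 0.09 had a 95% interval of 0.01 to 0.39 and an adjusted p of 0.0914. Without fibrosis 1 it was called (0.24, adjusted p = 0.0431; 0.0261 to 0.466 over all alternatives). Pik3r5 (chromosome 11, 68432121 to 68497849, plus strand), which encodes the p101 partner of the gamma form, ranged from 67.9 to 89.7 CPM in fibrosis and from 59.8 to 78.2 CPM in control, with a change of 0.17 ± 0.10 (adjusted p = 0.203).

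Pik3ap1 (chromosome 19, 41274218 to 41385070, minus strand) encodes BCAP, an adaptor that links the B cell receptor to PI3K. It was at 209, 243, 214, 136 and 185 CPM in fibrosis 1 to 5 and at 195, 196, 225, 179 and 187 CPM in control 1 to 5. Fibrosis 4 was the lowest and fibrosis 2 the highest of all libraries, and the groups overlapped. The log2 change was 0.01 ± 0.13, with a 95% interval of -0.28 to 0.30 (adjusted p = 0.975).

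Inpp5d (chromosome 1, 87620312 to 87720507, plus strand) encodes SHIP-1, the 5-phosphatase through which inhibitory receptors such as the Fc receptor of B cells limit PIP3. It stood at 457, 448, 341, 315 and 336 CPM in fibrosis 1 to 5 and at 388, 388, 394, 371 and 374 CPM in control 1 to 5. Fibrosis 1 and 2 lay above all controls and fibrosis 3, 4 and 5 below them. The log2 change was -0.01 ± 0.11 (95% interval -0.26 to 0.23, adjusted p = 0.940).

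The coefficient of variation was larger in fibrosis than in control for the most abundant members. It was 13.1% and 2.34% for Pik3cd, 17.9% and 2.62% for Inpp5d, and 20.3% and 8.94% for Pik3ap1. The B cell markers were lowest among the fibrosis libraries in libraries 4 and 5, as were Pik3cd and Pik3ap1. In fibrosis 5, Pik3ap1 (185 CPM) lay within the control range. Inpp5d was below all controls in fibrosis 3, 4 and 5. In fibrosis 3 it stood at 341 CPM, and the mean log2 level of the B cell markers relative to control was 0.51. The part of these markers in the spread was not tested. When libraries were scaled to an equal geometric mean of the 12 B cell markers, a scaling chosen after the data were seen, 3 members were lower and 1 was higher. The lower members were Pik3cd (-0.38, adjusted p = 0.0101), Pik3ap1 (-0.36, adjusted p = 0.00943) and Inpp5d (-0.37, adjusted p = 0.0178). That scaling moved the median of all genes by -0.33, so these values lay close to the general shift, and Pik3ip1 remained higher at 0.75 (adjusted p = 0.0211).

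**Figure D3:**
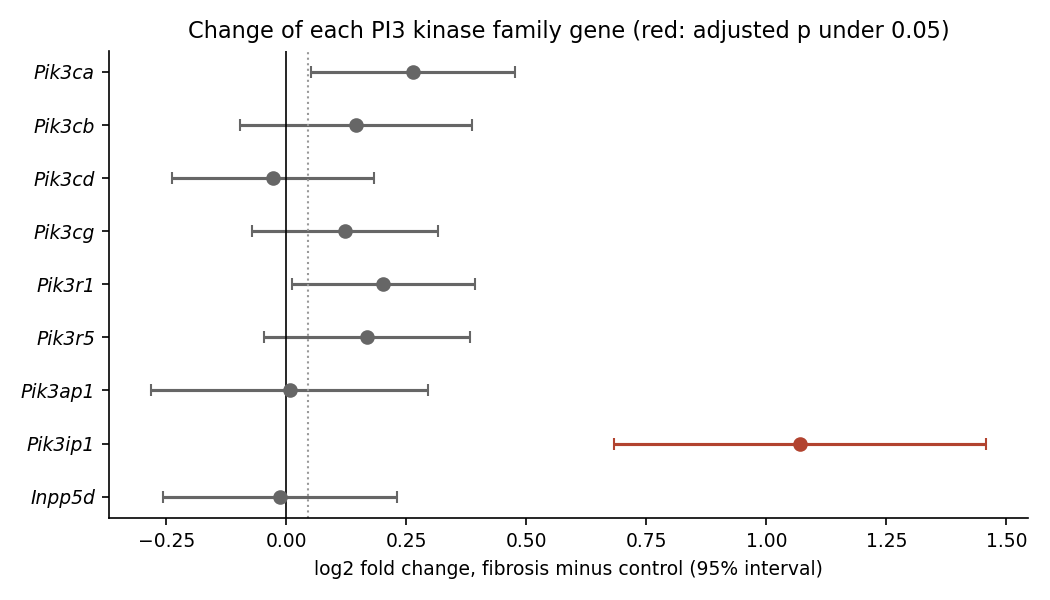
Log2 fold change of each of the 9 genes, fibrosis minus control, with its 95% interval from edgeR (horizontal axis). Pik3ip1, in red, is at 1.07 and is the gene called at an adjusted p under 0.05; the dotted line marks the median of all genes tested, 0.05.

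Per length, in the deposited FPKM, Pik3cd was the highest catalytic subunit gene in the control group at 75.6 ± 1.85 FPKM (SD, n = 5). Pik3ap1 followed at 74.9 ± 6.16 FPKM, and their ranges overlapped. Inpp5d was at 50.3 ± 1.15, Pik3r5 at 12.3 ± 1.41, Pik3cg at 9.70 ± 0.715 and Pik3r1 at 8.49 ± 0.513 FPKM. Pik3ip1 was at 8.22 ± 1.75, Pik3ca at 6.40 ± 0.734 and Pik3cb at 4.02 ± 0.314 FPKM. Ranges of neighbours overlapped from Pik3cg through Pik3r1 and Pik3ip1 to Pik3ca, and the other steps did not overlap. The place of Pik3ap1 rests on its listed length of 2615 bases. GENCODE M21 gives 5572 exonic bases for it, with which the same values would be 35.2 FPKM in control, below Inpp5d. For the other 8 members the lengths are identical. In fibrosis Pik3ip1 was at 17.0 ± 4.08 FPKM and ranked the fourth, with a range that overlapped that of Pik3r5 (13.6 ± 1.11 FPKM).

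The balance within the family was tested in 4 measures of FPKM, of which 3 are given here, by exact two-sided permutation tests, which cannot give a p below 0.00794. Pik3cd made up 80.2%, 76.2%, 77.3%, 74.1% and 74.2% of the summed catalytic subunits in fibrosis 1 to 5, and 78.5%, 79.8%, 77.0%, 80.9% and 78.8% in control 1 to 5. Fibrosis 2, 4 and 5 lay below all controls, and the difference of -2.59 percentage points did not pass (exact permutation p = 0.0952, adjusted p = 0.190 over the 4 measures). The log2 ratio of Inpp5d to Pik3cd, phosphatase to kinase, was -0.58 ± 0.181 and -0.59 ± 0.0648 (exact permutation p = 0.968, adjusted p = 0.968; n = 5 each). That of Pik3r5 to Pik3r1 was 0.50 ± 0.227 and 0.53 ± 0.197 (exact permutation p = 0.754, adjusted p = 0.968; n = 5 each).

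**Figure D4:**
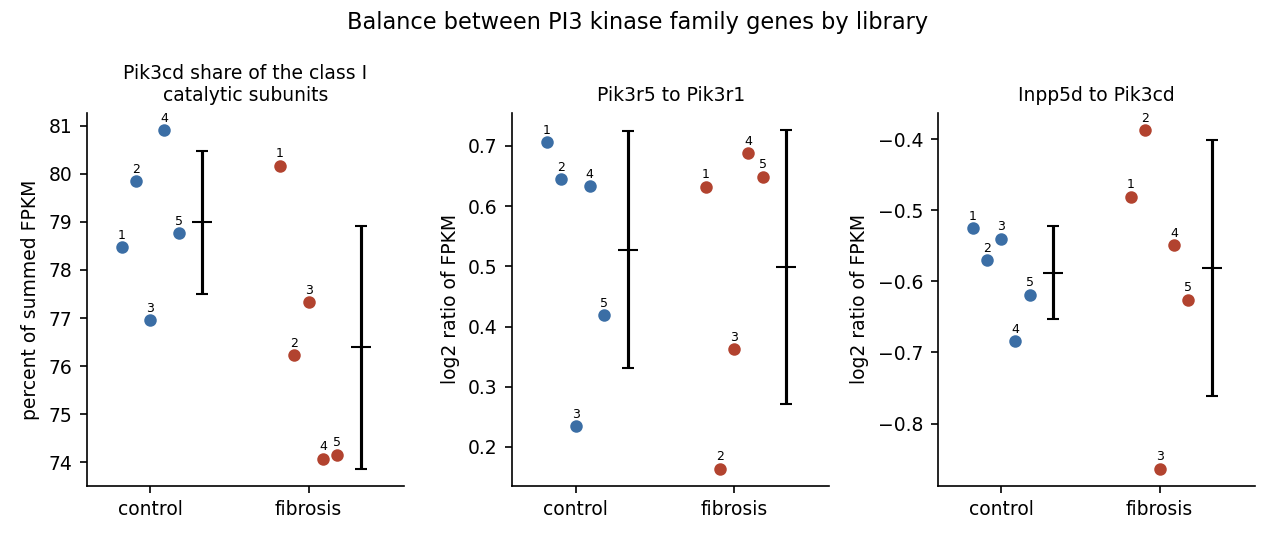
Balance between members in each library: the share of Pik3cd in the summed FPKM of the 4 catalytic subunit genes (percent), and the log2 ratios of FPKM of Pik3r5 to Pik3r1 and of Inpp5d to Pik3cd. Points are libraries with their replicate number, control in blue and fibrosis in red, and bars are the mean ± SD (n = 5); the axes do not start at 0. The share of Pik3cd is 76.4% in fibrosis and 79.0% in control on average, and the groups overlap in all panels.

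Other genes of the pathway were taken from 9 lists with 99 genes, of which 97 were tested. Among these, 25 were higher and 18 lower in fibrosis, a called share of 44.3% beside the 35.7% of all genes, and their median change was 0.07. With library size only as the scaling, 14 were higher and 24 lower, and that scaling moved the median of all genes by -0.11. With the B cell marker scaling, 4 were higher and 44 lower. Without fibrosis 4 and 5, the libraries with the most platelet and the least B cell marker RNA among the fibrosis libraries, 34 were higher and 14 lower; the part of these markers was not tested.

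Among the other regulatory subunits of class I, Pik3r2, the p85 beta gene, was lower in fibrosis. It stood at 87.3, 75.6, 79.0, 74.5 and 70.6 CPM in fibrosis 1 to 5 and at 118, 128, 113, 116 and 122 CPM in control 1 to 5. All controls lay above all fibrosis libraries, by a log2 change of -0.62 ± 0.08 (adjusted p = 9.02e-05). Per length, Pik3r2 was at 18.3 FPKM in fibrosis and 28.5 FPKM in control, above Pik3r1 in both groups. Pik3r3 (0.85 ± 0.32, adjusted p = 0.0521) and Pik3r6 (-0.32, adjusted p = 0.212) did not pass. The level of Pik3r3 was low, at 1.42 CPM in fibrosis and 0.792 CPM in control. Pik3r3 was called with at least 1 CPM in 5 libraries, by limma voom, and without fibrosis 1, fibrosis 4 or control 5 (0.86 to 1.05, adjusted p between 0.0303 and 0.0495, and between 0.0303 and 0.272 across alternatives). Pik3r6 was called by limma voom (-0.49, adjusted p = 0.0314, and between 0.0314 and 0.356 across alternatives). Of 4 genes of class II and III, 1 was called: Pik3r4, a regulatory subunit of the class III complex, rose by 0.39 ± 0.12 (adjusted p = 0.0271). The call ended when any of fibrosis 1, 2, 3 and control 2, 4, 5 was left out (0.29 to 0.39, adjusted p between 0.0559 and 0.0706, and between 0.000206 and 0.893 across alternatives).

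Receptor and adaptor inputs were higher in 4 and lower in 2 of 15 genes, a called share of 40% beside the 35.7% of all genes. Without fibrosis 4 and 5 they were higher in 7 and lower in 2. With library size only they were higher in 2 and lower in 3, and with the B cell marker scaling higher in 0 and lower in 6, so the direction of the list depended on the scaling. These scalings moved the median of all genes by -0.11 and -0.33. Gab1, a docking protein that binds p85, stood at 6.16 ± 2.76 CPM in fibrosis and 20.3 ± 3.24 CPM in control, a log2 change of -1.73 ± 0.25 (adjusted p = 0.000232). Gab1 was highest in fibrosis 4 among the fibrosis libraries (9.99 CPM) and in control 5 among the controls (25.4 CPM). The summed erythroid markers were highest in the same libraries (7701 and 6150 CPM), and their part was not tested. Irs1, the insulin receptor substrate, fell by 2.11 from a low level of 1.08 CPM in control. The higher genes were the exchange factor gene Vav3 (0.51 ± 0.11), the adaptor gene Blnk (0.47 ± 0.10), Grb2 (0.35 ± 0.09) and Cd81 (0.35 ± 0.11), which encodes a tetraspanin. Leaving out control 3 or control 5 ended the call of Cd81 (0.30 and 0.33, adjusted p = 0.0540 and 0.0556, and between 0.00588 and 0.907 across alternatives). With the B cell marker scaling, Vav3 (0.19, adjusted p = 0.429), Blnk (0.12, adjusted p = 0.363) and Grb2 (0.00, adjusted p = 0.977) were not called, and with library size only Grb2 was at 0.25 (adjusted p = 0.0514) and Cd81 at 0.24 (adjusted p = 0.0671).

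Phosphoinositide phosphatases other than Inpp5d were higher in 4 and lower in 2 of 13 genes, a called share of 46.2% beside the 35.7% of all genes. With library size only they were higher in 1 and lower in 3, and with the B cell marker scaling higher in 0 and lower in 5. Inpp4b, which acts on the lipid that SHIP-1 makes, rose from 7.36 ± 1.42 to 13.9 ± 3.17 CPM with no overlap between groups (0.91 ± 0.18, adjusted p = 0.00188). Inpp5f rose by 0.46 ± 0.13 and Inpp5k by 0.22 ± 0.07. Inpp5f was not called with library size only (0.35, adjusted p = 0.0694) or with the B cell marker scaling (0.12, adjusted p = 0.489), nor was Inpp4b with the latter (0.59, adjusted p = 0.0524). The call of Inpp5k ended when any of fibrosis 3 and control 1, 4, 5 was left out (0.20 to 0.22, adjusted p between 0.0541 and 0.0752, and between 0.0118 and 0.525 across alternatives). Inpp5b fell by 0.50 and Synj1 by 0.26, the latter not called without control 5 (-0.24, adjusted p = 0.0545; 0.0026 to 0.0586 over all alternatives).

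Kinases that make PI4P and PIP2, the substrate of PI3K, were lower in 4 and higher in 1 of 10 genes. The called share was 50%, beside the 35.7% of all genes. Pi4k2b (-0.77 ± 0.16), Pip5k1b (-0.64 ± 0.12) and Pip5k1a (-0.30 ± 0.09) were lower, and Pip4k2a was higher (0.55 ± 0.08) but not called with the B cell marker scaling (0.23, adjusted p = 0.209). Like the erythroid markers, Pi4k2b and Pip5k1b were highest in fibrosis 4 among the fibrosis libraries and in control 5 among the controls. Pip5k1a was lowest in fibrosis 4 among the fibrosis libraries (38.7 CPM), but it too was highest in control 5 among the controls (59.1 CPM). The part of the erythroid markers was not tested. Pip4k2c was at -0.26 ± 0.09, a call that ended when any of fibrosis 3, 4, 5 and control 1, 2, 4, 5 was left out (-0.27 to -0.20, adjusted p between 0.0573 and 0.0967, and between 0.00233 and 0.111 across alternatives). Without fibrosis 4 and 5, 2 genes of this list were higher and 2 lower.

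Genes whose products bind PIP3 or lipids made from it, or act below them, were higher in 7 of 17. This called share was 41.2%, beside 35.7% of all genes tested, of which 18.6% were higher. By edgeR none (0) was lower, whether p was adjusted or not. DESeq2 called 0 lower and limma voom 0. Plekha1, which binds the lipid that SHIP-1 leaves, was at 56.4 ± 7.08 CPM in fibrosis and 34.7 ± 4.69 CPM in control (0.70 ± 0.11, adjusted p = 0.00047). Dapp1, the adaptor BAM32 of B cells, rose by 0.59 ± 0.09 and the kinase gene Tec by 0.45 ± 0.11. Btk, at 0.24 ± 0.08 (adjusted p = 0.0409), was no longer called when any of fibrosis 1, 2, 3 and control 1, 2, 4 was left out (0.20 to 0.24, adjusted p between 0.0547 and 0.120, and between 0.00536 and 0.449 across alternatives). Akt1 (-0.13 ± 0.09, adjusted p = 0.280) and Plcg2 (0.01 ± 0.14, adjusted p = 0.953) did not pass. The median of the list was 0.22. Without fibrosis 4 and 5, 10 were higher and 0 lower. With library size only, 4 of these genes were higher and 2 lower, and with the B cell marker scaling 0 were higher and 6 lower, so here too the counts turned with the scaling. The median of the list was then 0.11 and -0.10, against -0.06 and -0.285 over all genes tested, so it stayed above that of all genes. With the B cell marker scaling Plekha1 was at 0.39 (adjusted p = 0.0752), Dapp1 at 0.28 (adjusted p = 0.178) and Tec at 0.12 (adjusted p = 0.470). With library size only Akt1 was called (-0.24, adjusted p = 0.0473).

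Genes of the mTOR complexes and their TSC brake were lower in 5 of 15. This called share of 33.3% lay near the 35.7% of all genes tested, of which 17.2% were lower. By edgeR none (0) was higher, whether p was adjusted or not. DESeq2 called 0 higher and limma voom 0. Eif4ebp1, the translation repressor that mTOR phosphorylates, fell by 0.56, the kinase gene Rps6kb2 by 0.44, Rptor by 0.38 and Mlst8 by 0.35. Tsc2 was at -0.42 ± 0.15, a call that held without fibrosis 1 or 2 and was lost without any 1 of the other 8 libraries (-0.45 to -0.31, adjusted p between 0.0555 and 0.0857, and between 0.000346 and 0.124 across alternatives). Mtor itself was at -0.21 ± 0.14 (adjusted p = 0.265). Cycling genes were lower in the same libraries (1230 to 1880 CPM in fibrosis, 3306 to 4282 CPM in control), and their part was not tested.

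Foxo1 was at 153 ± 34.0 CPM in fibrosis and 149 ± 15.4 CPM in control (0.04 ± 0.14, adjusted p = 0.861), while Foxo3 fell by 0.46. Of 13 genes that FOXO1 is known to regulate, 8 were higher and 3 lower, with a median of 0.40. The called share was 84.6%, beside the 35.7% of all genes. With the B cell marker scaling, 4 were higher and 3 lower. Sesn1, a stress-response gene that restrains mTOR complex 1, rose by 0.86 ± 0.14 and the chemokine receptor gene Ccr7 by 0.69 ± 0.12. The lower genes were the recombinase genes Rag1 (-1.95 ± 0.19) and Rag2 (-1.77 ± 0.49), which immature B cells express, and Bcl2l11, a death-promoting gene (-0.23 ± 0.08). Rag2 rested on a very low level, 0.278 CPM in fibrosis and 0.978 CPM in control (adjusted p = 0.0126). The call of Bcl2l11 ended when any 1 library other than fibrosis 2 was left out (-0.25 to -0.21, adjusted p between 0.0556 and 0.0927, and between 0.0024 and 0.123 across alternatives). Without fibrosis 4 and 5, 8 genes of the list were higher and 2 lower.

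**Figure D5:**
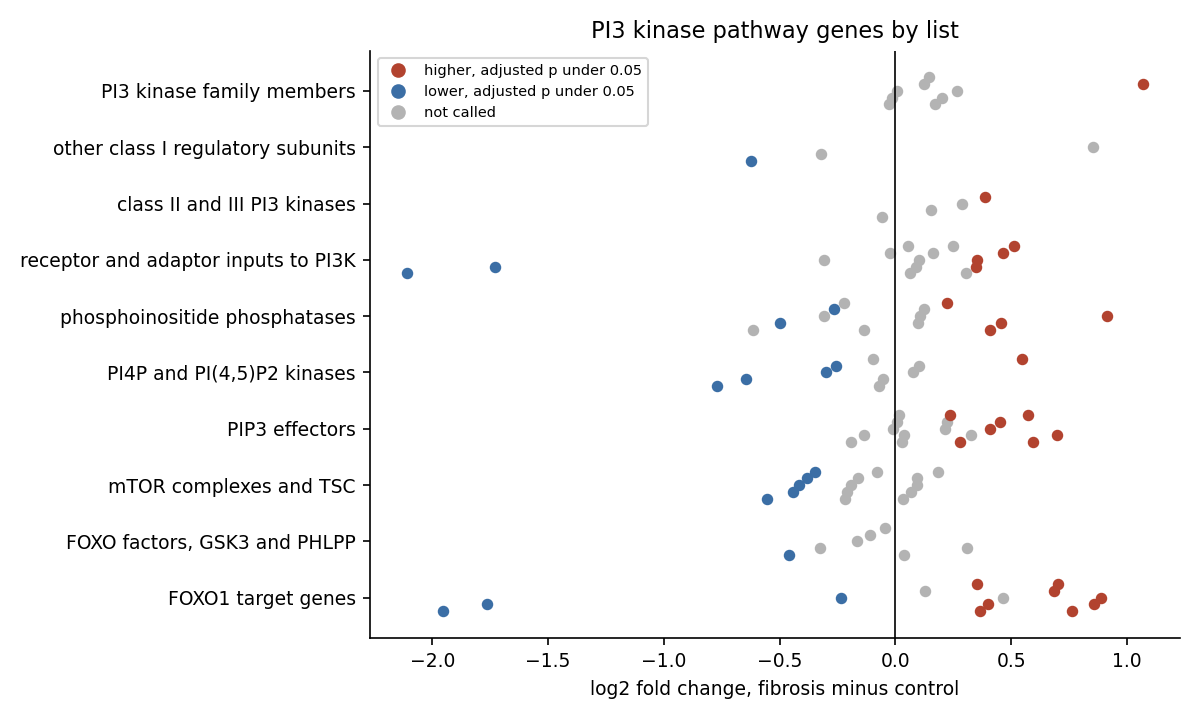
Log2 fold change, fibrosis minus control (horizontal axis), of every tested gene of the 9 members and the 9 pathway lists, one list per line. Red points are higher and blue points lower at an adjusted p under 0.05, and grey points are not called. Effectors of PIP3 show 7 red and 0 blue points and the mTOR list 5 blue and 0 red points. Of all genes tested, 18.6% were higher and 17.2% lower.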

How the data were processed

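The authors deposited a table of read counts and a table of FPKM (fragments scaled by gene length and a library total), each per gene for all 10 libraries. The FPKM equalled counts over length and count total, times a factor per library. That factor was 0.965 to 1.065 in fibrosis and 0.935 to 0.985 in control. The build is GRCm38 (mm10), per the submitters' processing notes; the aligner, the counting tool and its strand setting were not given in the sources used here. Libraries were made from poly-A RNA with random hexamers and PCR, per the labels' protocols, so reads are not independent molecules.

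Counts were scaled by TMM, filtered with filterByExpr and tested with edgeR 4.0.16 (robust quasi-likelihood, R 4.3.3), with Benjamini-Hochberg adjustment over 14283 genes holding 99.9% of the counts. A further 20984 genes had no count. The biological coefficient of variation was 0.183. Fold changes are on the log2 scale of counts as deposited, SE is the log2 change over the root of F, and CPM is TMM-scaled. FPKM as deposited served for levels per length and for the 4 balance measures. DESeq2 1.42.0, limma 3.58.1, other scalings and filters, a replicate block and leaving out libraries were alternatives. Limma was run as voom with library quality weights, called limma voom here, and on log2 FPKM plus 1 or 0.1. The edgeR procedure was tested on simulated data. No pair of libraries of the same group agreed within sampling noise, and pairs across groups were not checked. Promoters came from RefSeq and gene models from GENCODE M21.

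The members and lists were chosen with earlier results of these data known. Named genes are the 9 members, up to 4 genes of smallest p per pathway list, Akt1, Foxo1, Mtor, Btk, Plcg2 and Gab1, and the 3 genes most like each called member (protein-coding, mean of at least 10 CPM). Rag2, Bcl2l11, Synj1, Tsc2, Pip4k2c, Grb2, Cd81 and Inpp5k were named after their values were seen. Some genes that the rule takes, and 1 of the 4 balance measures, are not reported here.

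Lists not described further were those of macrophages and monocytes (1 of 14 higher; without fibrosis 4 and 5, 0 higher and 10 lower; by limma voom 5 lower), neutrophils (0 of 11 called by edgeR, 2 higher at an unadjusted p under 0.05, 0 by DESeq2 and by limma voom), erythroid cells (7 of 12 lower; without fibrosis 4 and 5, 11 lower), plasma cells (1 of 6 higher) and endothelial and stromal cells (1 of 5 higher).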

Additional observations from a re-analysis of the deposited data

Results flagged for a closer look

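In groups of 5 libraries, the gap of the highest or lowest library to its neighbour was compared with the range of the group. The ratio passed the 95% critical value of 0.71 in 3 of 48 groups checked, where chance passes about 1 in 20. For Pik3ca, control 3 stood at 71.1 CPM and the other controls at 54.0 to 56.1 CPM, a ratio of 0.879. For Pik3ip1, control 1 stood at 47.8 CPM and the other controls at 29.6 to 34.1 CPM, a ratio of 0.752. For the summed NK cell markers, control 4 stood at 129 CPM and the other controls at 76.5 to 83.3 CPM, a ratio of 0.871.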

How the results depend on the processing

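Pik3ip1 stayed higher and called under all 23 alternatives, and Pik3cb, Pik3cg and Pik3r5 stayed uncalled. The number of higher members was 1 with all libraries, 2 with at least 1 CPM in 5 libraries, 2 with the replicate block, 2 without fibrosis 4 and 5, 3 by limma voom, and 1 to 3 with each library left out in turn. Pik3ca was 0.27 (adjusted p = 0.0483) with the 1 CPM filter, 0.33 (0.00871) by limma voom, 0.27 (0.0268) with the replicate block, 0.31 without fibrosis 4 and 5, and 0.20 to 0.34 with 1 library left out. Pik3r1 was 0.25 by limma voom and 0.16 to 0.24 with 1 library left out. The labels do not say whether the replicate numbers pair the libraries. Same-number correlations ran from -0.228 to 0.393, and 3 of 5 fibrosis libraries matched their own number best, which does not settle it.

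At an adjusted p under 0.01, all genes gave 1547 higher, and pathway genes 16 higher and 11 lower. With library size only, 14 pathway genes were higher. With the B cell marker scaling, which was chosen after the data were seen, all genes gave 519 higher and 4649 lower, pathway genes 4 higher and 44 lower, and members 3 lower. Under it Pik3cd was at -0.38, Pik3ap1 at -0.36 and Inpp5d at -0.37, the uncalled members Pik3ca (-0.07), Pik3cb (-0.16), Pik3cg (-0.21), Pik3r1 (-0.13) and Pik3r5 (-0.15) changed sign, and so did Pik3ap1, Btk (-0.10, adjusted p = 0.449) and Inpp5k (-0.11, adjusted p = 0.525). Apart from these scalings, the cause was not tested.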
